A study of Mus musculus with 12 samples.

Results

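The replacement histone variants and the replication-independent linker histones were followed in KPC cells, a mouse pancreatic ductal adenocarcinoma (PDAC) line, after treatment with Cis (cisplatin, a platinum compound that crosslinks DNA). The 9 members were H2az1, H2az2, H2ax, H3f3a, H3f3b, Macroh2a1, Macroh2a2, H1f0 and H1f10, and they were picked by gene symbol and not by their values. Of these, 8 were listed in at least 1 library and 7 in all 12, among 15803 and 10081 transcripts. Per the study's methods, KPC cells come from tumours of mice with the allele Trp53 LSL-R172H and the transgene Pdx1-Cre, so that mutant Trp53 was switched on in pancreatic cells and was carried by every group, the controls included. The control cells, which the labels call untreated and the methods give as treated with PBS, are written PBS below, and their duration was not labelled. The Cis-treated cells received 20 μM Cis for 6 h or for 21 h. Each treatment had 2 ribosome profiling libraries and 2 RNA-seq libraries. A single cell line was used, and no source used here says that the libraries of a group came from separate cultures, so that p-values measure only the spread between these libraries, which may be technical.

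In replicating cells most histone protein is made from clustered genes whose mRNAs end in a stem-loop and are made in S phase. Replacement variants are encoded by single genes, mostly outside the clusters and with polyadenylated mRNAs, and are supplied to chromatin throughout the cell cycle by dedicated chaperones. H2A.Z marks promoters and enhancers, H2A.X carries the serine that is phosphorylated around DNA breaks, H3.3 fills gaps in active genes and at repeats, macroH2A carries a large non-histone domain and is enriched in silent chromatin, and H1.0 is the linker histone that accumulates in cells that leave the cycle. The mRNA of H2ax is known to exist both in a stem-loop form and in a polyadenylated form.

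Ribosome profiling sequences the stretches of mRNA that ribosomes shield from RNase (footprints), here in lysates made with cycloheximide. RNA-seq of the same treatments gives the mRNA level, and translational efficiency (TE) is the footprint level over the RNA level. Levels are given as RPKM, reads scaled to length and library total, with the coding sequence as the length for footprints and the whole transcript for RNA. Ranks between genes in RNA and in TE therefore depend on the annotated transcript, 2841 bases long for H3f3a and 1069 for H2az1. Footprint libraries held 3375480 to 5204127 reads and RNA-seq libraries 1985344 to 2901692, of which only 862476 to 1341584 remained without Lars2, Tmem38b and Mettl26. In RNA the epithelial keratins Krt8 (464 to 592 RPKM), Krt18 (421 to 544) and Krt19 (274 to 477) were high in every library, whereas Krt7 was at 0.584 to 2.58 RPKM and Epcam and Cldn4 had at most 9 and 2 reads. Summed footprint levels of the 8 carcinoma markers were 9113 to 9795 RPKM in PBS, 9314 to 9371 at 6 h and 6728 to 6861 at 21 h. The 6 leukocyte markers summed to 2.07 to 2.35 RPKM in PBS, 1.73 to 2.31 at 6 h and 3.76 to 10.4 at 21 h, with Cd3e at 0, Ptprc at no more than 3 reads, Cd68 at up to 5.40 RPKM (20 reads) and Lyz2 at up to 4.28 RPKM (7 reads). The 7 fibroblast markers summed to 3.68 to 9.72 footprint RPKM and the 4 endothelial ones to no more than 0.666. The part of these shifts in the results was not tested, and in bulk lysates fewer cells of a type and less RNA per cell cannot be told apart.

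H3f3a and H3f3b encode the same H3.3 protein from different chromosomes. Their promoters are shown because the RNA of H3f3b changed while that of H3f3a did not pass the test. Both are RefSeq sequences of 300 bases, from 250 before the transcript start to 50 from the start onward, in lower case and read 5′ to 3′ on the gene's strand. Capitals mark matches on either strand to the CCAAT box, written ATTGG where it lies on the other strand, to the element TATAAA, to the octamer ATGCAAAT and to TGACGC, a variant of the start of a CRE site.
H3f3a (GRCm38.p6 chr1:180813556-180813855, minus strand): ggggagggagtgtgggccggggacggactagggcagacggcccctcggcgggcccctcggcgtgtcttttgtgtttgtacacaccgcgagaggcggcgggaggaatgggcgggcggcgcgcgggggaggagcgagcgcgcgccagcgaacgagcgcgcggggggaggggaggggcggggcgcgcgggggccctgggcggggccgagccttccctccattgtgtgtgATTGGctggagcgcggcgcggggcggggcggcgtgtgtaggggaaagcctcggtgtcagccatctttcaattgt
H3f3b (GRCm38.p6 chr11:116024455-116024754, minus strand): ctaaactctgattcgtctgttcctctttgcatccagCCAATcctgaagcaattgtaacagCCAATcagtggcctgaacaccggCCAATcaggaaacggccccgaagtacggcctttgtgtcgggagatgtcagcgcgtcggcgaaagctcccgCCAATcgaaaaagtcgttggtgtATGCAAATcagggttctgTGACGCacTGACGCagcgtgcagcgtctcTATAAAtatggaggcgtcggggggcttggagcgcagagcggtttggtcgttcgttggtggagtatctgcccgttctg
The H3f3b window held 4 CCAAT matches, 1 TATAAA match, 1 octamer match and 2 TGACGC matches, none of which overlapped another. The TATAAA match began 27 bases before the transcript start, at position -27 with the start as position 0, and the octamer match at position -74. The H3f3a window held 1 CCAAT match, none of the 3 other motifs, and 6 matches to GGGCGG (the GC box, not in capitals, some of them overlapping), of which H3f3b had 0. Its GC content was 74%, against 55% for H3f3b. In the windows of the other members searched, CCAAT matches numbered 4 for H2az2, 3 for H2az1 and 1 for Macroh2a2. They numbered 0 for Macroh2a1, H1f0 and H1f10. Among 32851 promoters of the same length, 37.4% held CCAAT, 35.7% GGGCGG, 13.6% TATAAA, 1.74% the octamer and 7.40% TGACGC. Matches to TGACGTCA (the CRE, in 1.79% of promoters), TGANTCA (the AP-1 site, in 7.81%) and TTTNGCGC (an E2F site, in 1.38%) were searched on both strands as well, and none was found for any of the 8 members in the promoter table. These 8 did not include H2ax, whose promoter was therefore not searched. A match describes letters in the window and does not show that a factor binds there.

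Levels of the 7 detected members spanned a wide range. In footprints of PBS cells H2az1 stood first at 4266 ± 411 RPKM (SD, n = 2), followed by H3f3b at 2667 ± 116, H3f3a at 496 ± 79.1, H1f0 at 384 ± 67.4, H2ax at 139 ± 7.25, Macroh2a1 at 134 ± 3.22 and H2az2 at 100.3 ± 1.15. Only the neighbours H2ax and Macroh2a1 overlapped in this order. At 21 h the libraries of H2ax overlapped with those of H1f0 (235 ± 34.2 and 267 ± 31.1 RPKM), and Macroh2a1 was last at 93.9 ± 5.42, overlapping with H2az2. In RNA of PBS cells the order was H2az1 at 535 ± 4.38 RPKM, H3f3b at 252 ± 13.0, H1f0 at 65.4 ± 4.74, H2az2 at 41.8 ± 2.43, H2ax at 40.9 ± 0.592, H3f3a at 30.5 ± 0.0831 and Macroh2a1 at 24.7 ± 2.94, and H2az2 and H2ax overlapped. H3f3a stood above H1f0, H2ax and H2az2 in footprints and below all of them in RNA. H1f10, which encodes the linker histone H1.10, had 1 read in 1 of the 12 libraries (RNA-seq at 6 h, replicate 2, 0.356 RPKM). A count of 0 allowed it up to 1.02 to 1.58 RPKM in the footprint libraries and 0.850 to 1.24 in the RNA-seq libraries, taking 3 reads as the limit and for counting error only. Macroh2a2 was listed in no library, so that all listed macroH2A reads were those of Macroh2a1. Its transcript length was not given, so that no limit on its level could be set. An absent transcript could not be told apart from one that the authors did not count.

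**Figure D1:**
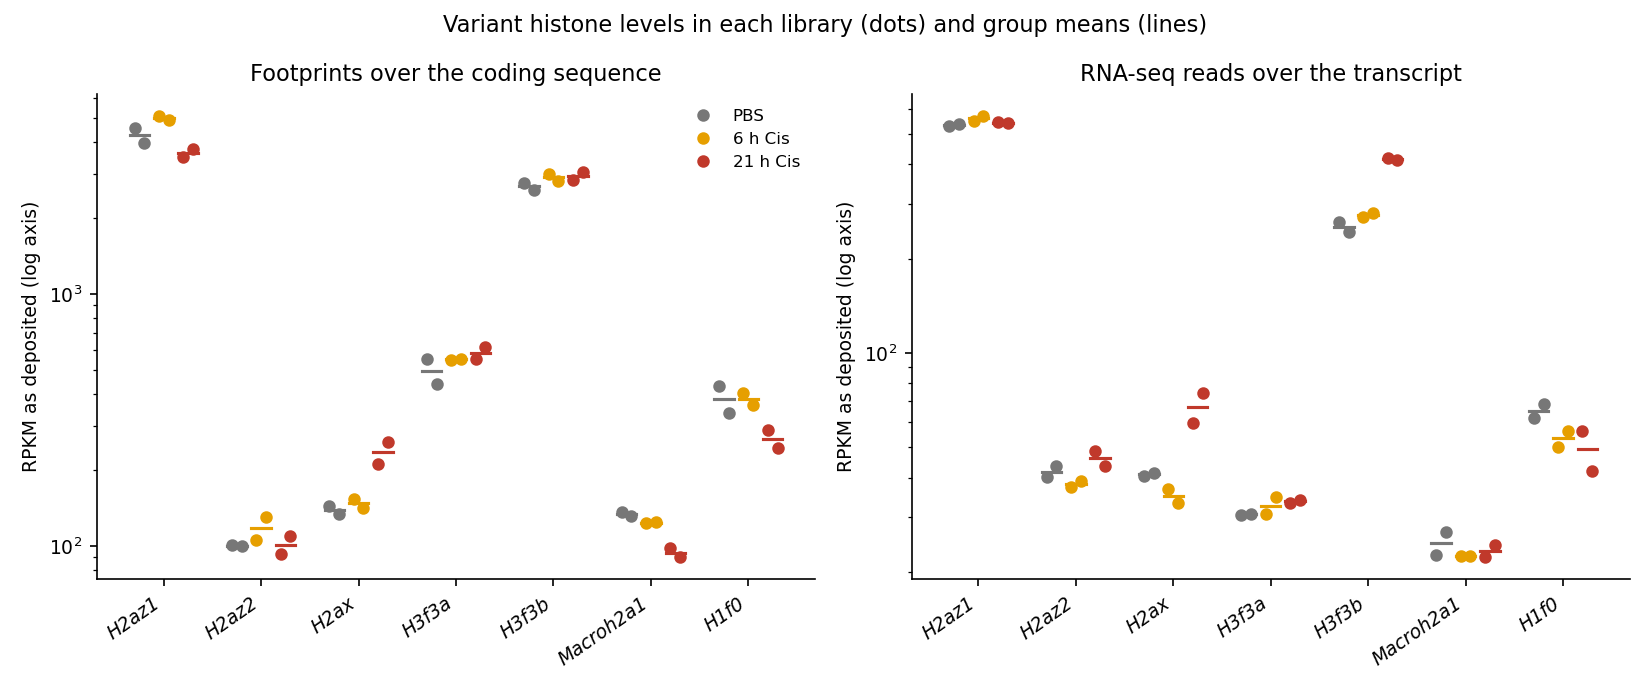
RPKM as deposited (log axis) of the 7 detected members in each library, in footprints (left) and RNA-seq (right), with grey for PBS, orange for 6 h and red for 21 h of Cis; dots are the 2 libraries and lines their mean. H2az1 and H3f3b lie above the other members in both panels, H2ax is higher at 21 h in both (211 and 259 RPKM in footprints), and H3f3b at 21 h stands above its other libraries in RNA (420 and 412 RPKM) but not in footprints.

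Changes were tested with limma on the log2 scale of the scaled RPKM, with Benjamini-Hochberg adjustment over all transcripts. All 7 detected members were tested in every comparison, and the 6 h and 21 h comparisons share the PBS libraries, so that they are not independent of each other. After 21 h, 4 of the 7 members passed the test in footprints, 1 higher (H2ax) and 3 lower (H1f0, Macroh2a1 and H2az1), where 18.9% of all transcripts were called higher and 20.2% lower. In RNA 3 passed, H2ax and H3f3b higher and H1f0 lower, beside 11.6% and 12.2% of all transcripts. With 7 members these shares can be read against the background only as a description. After 6 h none passed in footprints (1.05% of transcripts higher and 0.991% lower) and none in RNA (0% and 0%), and at an unadjusted p under 0.05 limma counted 1 member in each. Between 6 h and 21 h the footprints of 1 member rose and those of 3 fell (15% and 15.7% of all transcripts), and the RNA of 2 rose and of 0 fell (7.53% and 8.2%). For TE no member passed at 6 h (0% and 0% of transcripts) or at 21 h (0.258% and 0.15%), with 0 and 2 at an unadjusted p under 0.05. With voom on the recovered reads, 1 member passed at 6 h in footprints (H2az1), 1 at 6 h in RNA (H3f3b) and 1 at 21 h in TE (H3f3b).

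**Figure D2:**
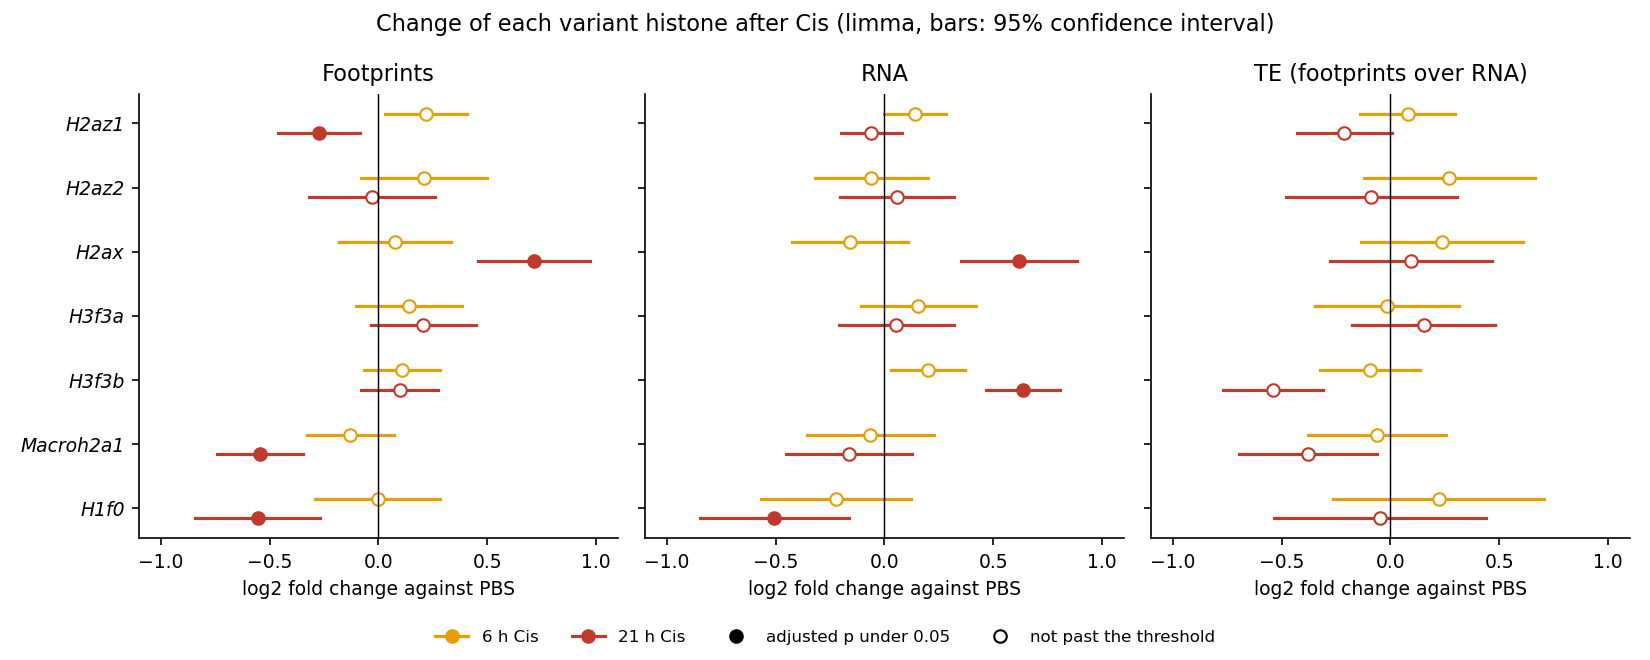
Log2 fold change against PBS of each detected member in footprints, RNA and TE at 6 h (orange) and 21 h (red); points are limma estimates, bars the 95% confidence intervals, and filled points have an adjusted p under 0.05. The filled points are all at 21 h: H2ax to the right in footprints and RNA, H3f3b to the right in RNA, and H1f0, Macroh2a1 and H2az1 to the left in footprints, with H1f0 also to the left in RNA.

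H2ax, the variant whose phosphorylated form marks DNA breaks, was the member whose footprints and RNA both rose. Its footprint levels were 144 and 134 RPKM in the PBS libraries, 154 and 142 at 6 h, and 211 and 259 at 21 h. Its RNA levels were 40.5 and 41.3 RPKM in PBS, 36.8 and 33.2 at 6 h, and 59.9 and 74.7 at 21 h. In both assays the 2 libraries at 21 h lay above the 4 others, and in RNA those at 6 h lay below both PBS libraries. The log2 fold change at 21 h was 0.71 in footprints (SE 0.11, limma adjusted p = 0.00152) and 0.62 in RNA (SE 0.12, limma adjusted p = 0.00576). Both calls held under each of the 16 alternatives. At 6 h the differences of 0.08 in footprints and -0.16 in RNA did not pass (limma adjusted p = 0.743 and 0.648). Footprints over RNA came to 3.39 ± 0.226 in PBS, 4.23 ± 0.0551 at 6 h and 3.49 ± 0.0346 at 21 h (SD, n = 2, libraries matched by replicate number), and the TE difference at 21 h was 0.10 on the log2 scale, with a 95% confidence interval from -0.28 to 0.47. H2ax rests on 205 to 388 reads per footprint library and 101 to 216 per RNA-seq library.

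H3.3 differed between its genes. The RNA of H3f3b, the main source of H3.3 mRNA in these cells, was 261 and 243 RPKM in PBS, 272 and 281 at 6 h, and 420 and 412 at 21 h. Its footprints were 2749 and 2585 RPKM in PBS, 3000 and 2812 at 6 h, and 2816 and 3041 at 21 h. At 21 h both RNA-seq libraries stood above the 4 others. The footprint libraries at 21 h lay above both PBS libraries but overlapped with those at 6 h. The log2 fold change at 21 h was 0.64 in RNA (SE 0.076, limma adjusted p = 0.000586), and this call held under each of the 16 alternatives. In footprints the difference was 0.10, with a 95% confidence interval from -0.08 to 0.27 (limma adjusted p = 0.345).

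The TE of H3f3b at 21 h was -0.54 on the log2 scale by its point estimate and missed the threshold narrowly. The standard error was 0.11 and the 95% confidence interval ran from -0.77 to -0.31. Its adjusted p from limma was 0.0547, and 0.000242 before adjustment. Footprints over RNA were 10.6 ± 0.0845 in PBS, 10.5 ± 0.699 at 6 h and 7.04 ± 0.478 at 21 h, while the median of all transcripts was 3.22 to 3.60 per pair of libraries. Both values at 21 h lay below the 4 others. The TE difference passed under 5 of 22 alternatives and, as in the main fit, not under the other 17. Among the 5 were quantile normalization (-0.65, limma adjusted p = 0.03) and voom on the recovered reads (-0.55, adjusted p = 0.000107). Over all 22 alternatives the difference ran from -0.65 to -0.47.

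H3f3a, the second H3.3 gene, had footprints of 552 and 440 RPKM in PBS, 544 and 553 at 6 h, and 553 and 615 at 21 h. In RNA it measured 30.5 and 30.6 RPKM in PBS, 30.5 and 34.6 at 6 h, and 33.2 and 34.0 at 21 h. The libraries differed little, and a single PBS footprint library (replicate 2) lay apart from the rest. The footprint difference at 21 h was 0.21 on the log2 scale (95% confidence interval -0.04 to 0.45, limma adjusted p = 0.156). It was 0.35 without PBS replicate 1 and passed (limma adjusted p = 0.0321), and 0.06 without PBS replicate 2 (limma adjusted p = 0.672). In RNA the difference was 0.06 (95% confidence interval -0.21 to 0.32), and it turned to -0.04 with quantile normalization. Its footprints over RNA were the highest of the members, at 16.2 ± 2.64 in PBS, 16.9 ± 1.32 at 6 h and 17.4 ± 1.04 at 21 h.

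Added over both genes as deposited, H3.3 RNA was 283 ± 12.9 RPKM in PBS, 309 ± 8.67 at 6 h and 450 ± 5.18 at 21 h. At 21 h it was 1.59 times the PBS level. The RNA ratio of H3f3b alone was 1.65 as deposited and 1.56 after scaling. H3.3 footprints, also as deposited, were 3163 ± 195, 3455 ± 127 and 3513 ± 203 RPKM, 1.11 times PBS at 21 h. H3f3b gave 89.2 ± 0.522% of the H3.3 RNA in PBS, 89.5 ± 0.645% at 6 h and 92.5 ± 0.207% at 21 h. Its share of the footprints was 84.4 ± 1.54%, 84.1 ± 0.766% and 83.4 ± 0.306%. The share in RNA was thus higher in both libraries at 21 h than in the 4 others, and the share in footprints was not. With 2 libraries a group, these shares are given without a test. The coding sequences of H3f3a and H3f3b, and of H2az1 and H2az2, are closely related, and how the authors assigned reads that match both genes of a pair is not given in the sources used here, so that the split between them is uncertain, above all for footprints.

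**Figure D3:**
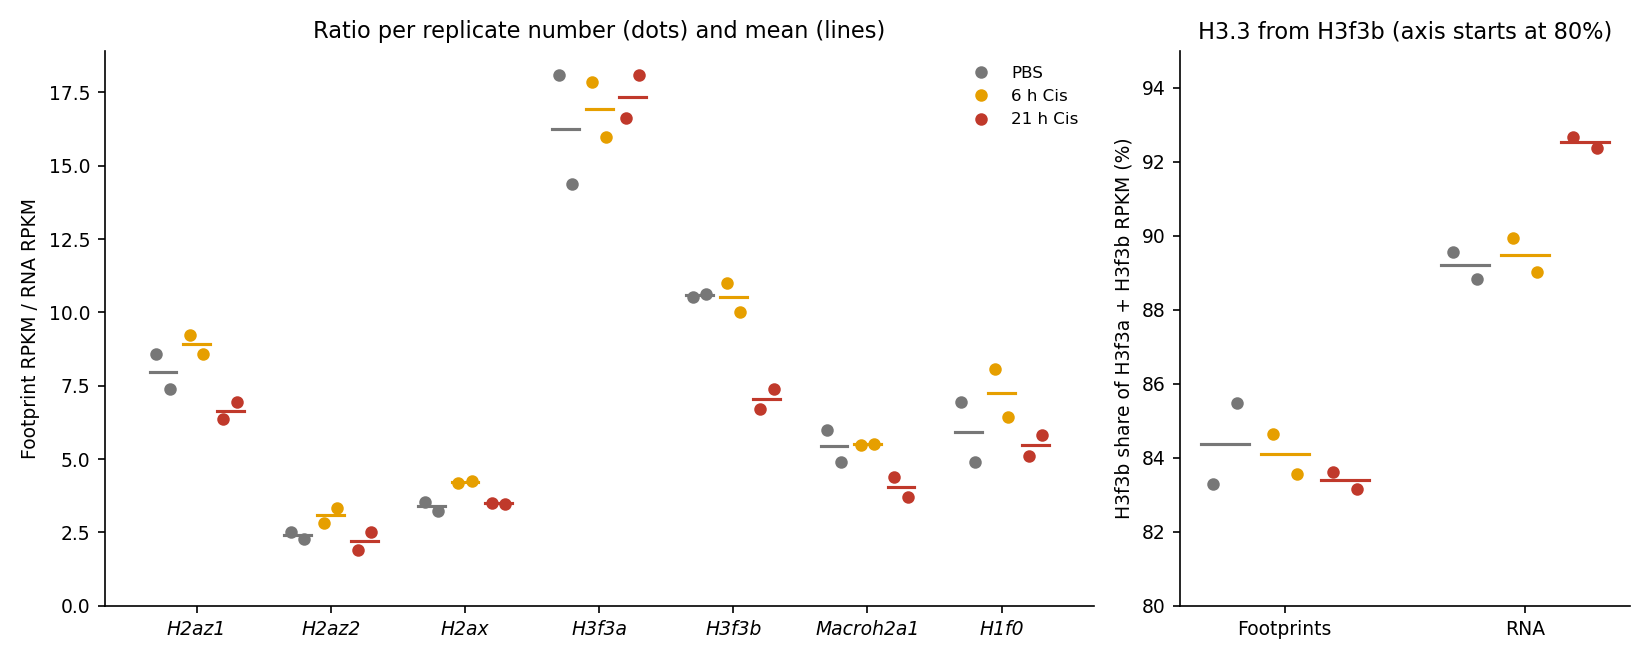
Left, footprint RPKM over RNA RPKM of each member (linear axis from 0), with dots for the 2 pairs of libraries that share a replicate number and lines for their mean; right, the share of H3f3b in the summed RPKM of H3f3a and H3f3b in percent, on an axis from 80 to 95%, per library. The ratio of H3f3b is 7.04 at 21 h against 10.6 in PBS, and its share of H3.3 RNA is 92.5% at 21 h against 89.2% in PBS.

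H2A.Z came almost wholly from H2az1. Its footprints were 4557 and 3975 RPKM in PBS, 5096 and 4914 at 6 h, and 3483 and 3750 at 21 h. The 3 groups did not overlap, with 6 h highest and 21 h lowest. At 21 h the log2 fold change was -0.27 (SE 0.083, limma adjusted p = 0.0306). At 6 h it was 0.22 with an unadjusted p of 0.0288 and a limma adjusted p of 0.183, and the fall from 6 h to 21 h was the clearest of the 3 comparisons (-0.49, SE 0.083, limma adjusted p = 0.00349). The call against PBS was lost under 8 of the 16 alternatives, in which the adjusted p ran up to 0.13 and the change from -0.20 to -0.27. Among them were the fits without PBS replicate 1 (-0.20, limma adjusted p = 0.107), without 6 h replicate 1 (-0.27, 0.0704) or replicate 2 (-0.27, 0.0701), and without 21 h replicate 1 (-0.21, 0.13).

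The RNA of H2az1 was 532 and 538 RPKM in PBS, 551 and 573 at 6 h, and 546 and 541 at 21 h. As deposited, the values at 21 h lay slightly above PBS, and after scaling slightly below. The difference at 21 h was -0.06 on the log2 scale (95% confidence interval -0.20 to 0.08), but 0.02 for RPKM as deposited and 0.22 with quantile normalization (limma adjusted p = 0.00971). No direction is therefore given for it. TE at 21 h was -0.21 by point estimate (95% confidence interval -0.43 to 0.01, limma adjusted p = 0.414), with footprints over RNA of 7.98 ± 0.835 in PBS, 8.91 ± 0.472 at 6 h and 6.65 ± 0.392 at 21 h.

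H2az2, the second H2A.Z gene, had footprints of 101 and 99.5 RPKM in PBS, 105 and 130 at 6 h, and 92.5 and 110 at 21 h, and RNA of 40.0 and 43.5, 37.3 and 39.0, and 48.6 and 43.7 RPKM. The groups overlapped in footprints between PBS and 21 h, and no comparison passed. At 21 h the difference in footprints was -0.03 (95% confidence interval -0.32 to 0.26) and in RNA 0.06 (-0.20 to 0.32), with a sign that depended on the scaling in both. H2az2 gave 7.24 ± 0.335% of H2A.Z RNA in PBS, 6.36 ± 0.0220% at 6 h and 7.82 ± 0.503% at 21 h, but only 2.31 ± 0.191%, 2.31 ± 0.394% and 2.71 ± 0.178% of H2A.Z footprints. Its footprints over RNA were the lowest of the members, at 2.41 ± 0.167 in PBS, 3.09 ± 0.367 at 6 h and 2.21 ± 0.43 at 21 h. Summed over both genes as deposited, H2A.Z footprints at 21 h were 0.851 times the PBS level and H2A.Z RNA 1.02 times. The RNA ratio of H2az1 alone was 1.02 as deposited and 0.960 after scaling, so that no direction is given for H2A.Z RNA.

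Footprints of Macroh2a1, the only macroH2A gene detected, fell at 21 h. They were 136 and 131 RPKM in PBS, 123 and 124 at 6 h, and 97.7 and 90.0 at 21 h, and the libraries of each treatment lay below those of the one before. The log2 fold change at 21 h was -0.54 (SE 0.087, limma adjusted p = 0.00168), and it passed under each of the 16 alternatives. The RNA was 22.6 and 26.8 RPKM in PBS, 22.4 and 22.4 at 6 h, and 22.2 and 24.3 at 21 h, with all groups overlapping PBS or lying just under it. Its difference at 21 h was -0.16 (95% confidence interval -0.45 to 0.13, limma adjusted p = 0.403). The TE difference was -0.38 (95% confidence interval -0.70 to -0.06), with an unadjusted p of 0.0225 and a limma adjusted p of 0.314, and footprints over RNA were 5.45 ± 0.778, 5.50 ± 0.0308 and 4.05 ± 0.488. From 6 h to 21 h the footprints fell by 0.42 on the log2 scale (limma adjusted p = 0.0088), a call that was lost without 6 h replicate 1 (-0.42, 0.0552) or without 6 h replicate 2 (-0.41, 0.0657). The annotated gene overlaps a second gene model, Gm31485, and whether the reads were counted by strand is not given in the sources used here.

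H1f0, which encodes the linker histone H1.0, was lower at 21 h in both assays. Its footprints were 431 and 336 RPKM in PBS, 405 and 363 at 6 h, and 289 and 244 at 21 h. Its RNA was 62.1 and 68.8 RPKM in PBS, 50.2 and 56.5 at 6 h, and 56.4 and 41.9 at 21 h. The footprint libraries at 21 h lay below the 4 others, while in RNA 1 of them lay within the range of 6 h. The log2 fold change at 21 h was -0.55 in footprints (SE 0.13, limma adjusted p = 0.00876) and -0.51 in RNA (SE 0.15, limma adjusted p = 0.0393). In footprints the call was lost only without 21 h replicate 2 (-0.43, limma adjusted p = 0.0545). In RNA it was lost under 7 of the 16 alternatives, among them the fits without PBS replicate 1 (-0.57, limma adjusted p = 0.106), PBS replicate 2 (-0.45, 0.176) and 21 h replicate 2 (-0.26, 0.228). Footprints over RNA were 5.92 ± 1.46 in PBS, 7.25 ± 1.15 at 6 h and 5.47 ± 0.509 at 21 h, and the TE difference was -0.05 (95% confidence interval -0.53 to 0.44). The fall in footprints between 6 h and 21 h (-0.55, limma adjusted p = 0.0124) was lost without 6 h replicate 1 (-0.47, 0.0852) or 21 h replicate 2 (-0.43, 0.0639).

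The replication-dependent histones, which share no transcript with the members, were counted beside them. Of 56 tested in RNA, 0 passed at 6 h, with a median log2 fold change of -0.43 (all transcripts -0.01). For TE 0 of 55 passed at 6 h, with a median of -0.10 (all transcripts -0.01). In both, 0% of all transcripts passed. Of 55 tested in footprints, 0 were higher and 22 lower at 6 h, beside 1.05% and 0.991% of all transcripts. The median log2 fold change in footprints was -0.61 (all transcripts -0.01), while none of the 7 members passed. No transcript of any kind passed at 6 h without the variance trend or without 6 h replicate 2, and 5 of these histones were lower without 6 h replicate 1, 8 without PBS replicate 1, 7 without the filter on low values and 30 with voom. At 21 h 5 were higher and 7 lower in footprints (median 0.01), smaller shares than the 18.9% and 20.2% of all transcripts, with H2bc9 at 1.12 and H2bc22 at 0.93 among the higher and H3c4 at -0.90 among the lower ones. The higher count was 1 without 21 h replicate 2, 2 without PBS replicate 2, without the trend or without the filter, and the lower one 4 without PBS replicate 1. H2bc9 and H2bc22 lost their calls without either library of 21 h, and H2bc22 also without either PBS library. In RNA 18 of 56 were higher and 1 lower at 21 h (median 0.43, all transcripts 0.02), beside 11.6% and 12.2% of all transcripts, with H2ac6 at 1.35, H2ac11 at 1.28 and H3c3 at 1.16. The higher count was 7 without PBS replicate 2 or without the trend, 11 without 21 h replicate 2 or without the filter, and 12 without 21 h replicate 1. H2ac6 lost its call without PBS replicate 2, and H2ac11 without PBS replicate 2 or 21 h replicate 1. For TE 0 of 55 were higher and 2 lower at 21 h (median -0.41, all transcripts -0.04), beside 0.258% and 0.15% of all transcripts. The 2 lower ones were H2bc11 (-1.14, limma adjusted p = 0.0432) and H4c14 (-0.73, 0.0451). These calls were lost under 15 and 17 of 22 alternatives, among them 9 and 11 with 1 library left out. Some of the named histones rested on few reads. H2bc22 had a mean of 5.5 footprint reads in PBS and 8.5 at 21 h. H2ac11 had a mean of 5 RNA reads in PBS and 11.5 at 21 h. Both calls were also lost with voom. The replication-dependent histones are near copies of each other, so that their reads may be split between copies. The study's methods do not say whether these RNA-seq libraries were made from polyadenylated RNA only. If they were, RNA and TE values of stem-loop mRNAs, and of the stem-loop form of H2ax, would not cover all of the mRNA.

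**Figure D4:**
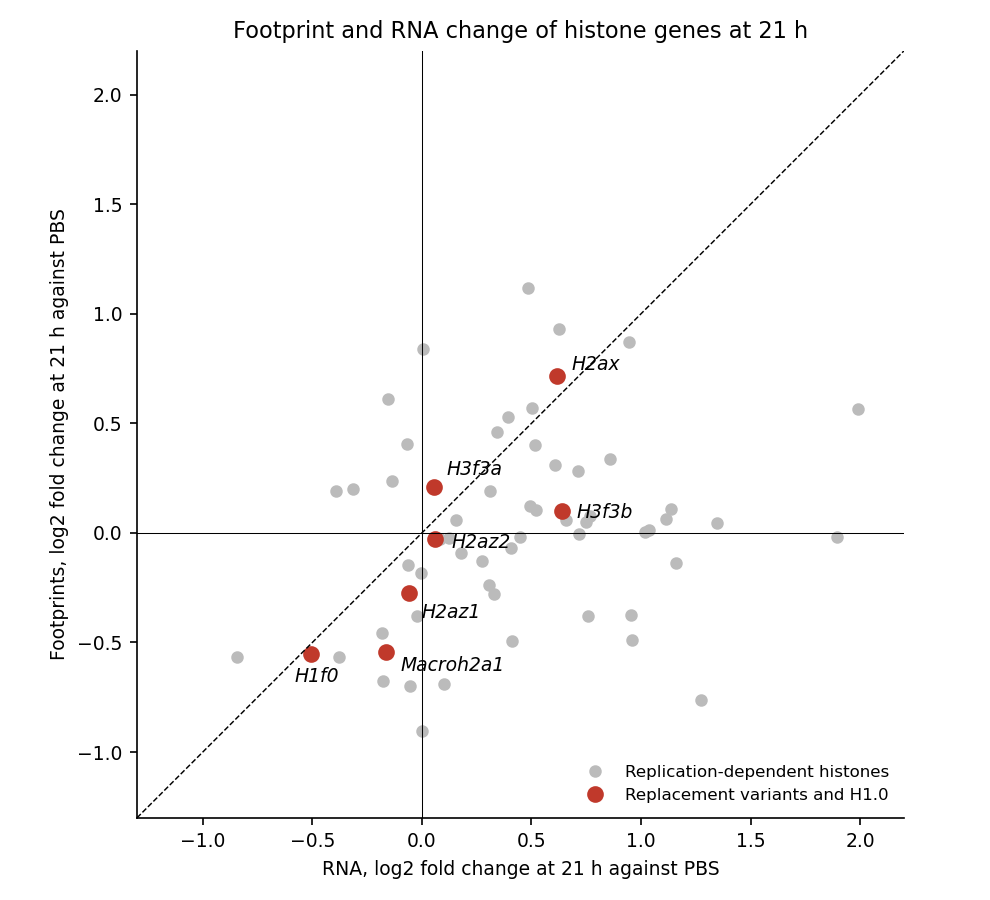
Log2 fold change at 21 h against PBS in RNA (horizontal) and in footprints (vertical) for the 7 detected members (red, labelled) and 55 replication-dependent histones (grey); the dashed line marks equal change. H2ax and H1f0 lie near the line, at 0.62 and 0.71 and at -0.51 and -0.55, while H3f3b (0.64 and 0.10) and many grey points lie below it.

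Genes that place H3.3 into chromatin were tested as a list of 8, all of which passed the filter. At 21 h 1 was higher and 2 were lower in footprints (median 0.03, all transcripts 0.01), and 2 were higher and 0 lower in RNA (median 0.18, all transcripts 0.02). The shares of all transcripts called at 21 h, against which the counts of this and the following lists are set, were 18.9% higher and 20.2% lower in footprints and 11.6% and 12.2% in RNA. Hira, the scaffold of the complex that deposits H3.3 in active genes, fell in footprints from 17.9 ± 2.38 RPKM in PBS to 7.82 ± 0.0252 at 21 h (log2 fold change -1.17, limma adjusted p = 0.000989). Its RNA difference of -0.48 (SE 0.17) did not pass (limma adjusted p = 0.0735). Footprints of Cabin1, a partner of Hira, fell as well (-0.68), and those of Asf1b, an H3-H4 chaperone, rose (0.75). In RNA, Ubn1, a further partner of Hira, rose by 0.85 and Asf1a, an H3-H4 chaperone that works with the Hira complex, by 0.79. The calls of Hira and Asf1b held under each of 16 alternatives, while Cabin1 lost its call without any 1 of the PBS or 21 h libraries (7 of 15 alternatives in all), as did Asf1a (6 of 16), and Ubn1 without PBS replicate 1 or either library of 21 h.

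The 14 genes listed for H2A.Z exchange (subunits of the SRCAP, TIP60 and INO80 complexes and the chaperone Anp32e) were all tested. At 21 h 1 was higher and 1 lower in footprints (median -0.09), namely Vps72, an H2A.Z chaperone within SRCAP and TIP60 (0.37), and Ruvbl1, a shared ATPase (-0.35). In RNA 1 was higher and 0 lower (median -0.04), Dmap1 (0.75, limma adjusted p = 0.0472). Dmap1 lost its call under 11 of 15 alternatives, including each of the 6 with 1 library left out. Vps72 and Ruvbl1 lost theirs under 4 of 16 each, among them the fits without PBS replicate 2 or 21 h replicate 1 for Vps72, and without either PBS library or 21 h replicate 2 for Ruvbl1. For TE 0 passed at either time, and at 6 h 0 passed in either assay.

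Of the 12 general histone chaperones tested, 4 were higher and 3 lower in footprints at 21 h (median 0.15), beside 18.9% and 20.2% of all transcripts, and 5 higher and 2 lower in RNA (median 0.21), beside 11.6% and 12.2%. Chaf1a, the large subunit of CAF-1, which places new H3-H4 behind replication forks, rose in footprints from 25.5 ± 2.14 RPKM to 99.2 ± 1.84 (log2 fold change 1.91, limma adjusted p = 1.7e-05) and in RNA from 6.47 ± 0.536 to 17.2 ± 1.58 (1.26, limma adjusted p = 0.00131). Chaf1b, its partner subunit, rose by 0.78 in footprints and 1.01 in RNA. The RNA of Nasp, a chaperone of free H3-H4, rose by 0.80, and footprints of Ptma, which encodes prothymosin alpha, fell by 0.64, a call lost without the trend or without 21 h replicate 2.

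Of 11 genes that phosphorylate, dephosphorylate or read H2A.X, 2 were higher and 2 lower in footprints at 21 h (median 0.24), shares near the 18.9% and 20.2% of all transcripts, and of the 10 tested in RNA 1 was higher and 0 lower (median 0.26). Footprints of the damage kinase genes Atr and Prkdc fell, Atr from 5.12 ± 0.198 RPKM in PBS to 1.84 ± 0.418 (log2 fold change -1.31, limma adjusted p = 0.00414) and Prkdc from 2.06 ± 0.245 to 0.608 ± 0.0232 (-1.23, limma adjusted p = 0.0175). At 21 h these values rested on a mean of 52 footprint reads for Atr and 27 for Prkdc. The RNA difference of Atr was -0.44 and did not pass (limma adjusted p = 0.312), and Prkdc was not tested in RNA. With quantile normalization the footprint call of Prkdc was lost. Ppm1d, which encodes the phosphatase WIP1 that removes the phosphate from H2A.X, rose in footprints (0.80) and in RNA (1.02). The RNA call of Ppm1d was lost under 7 of 16 alternatives, among them each fit without 1 of the PBS or 21 h libraries, and the Prkdc call without either PBS library.

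Of 8 other replication-independent histone variants, 3 were listed and 2 tested. Cenpa, the centromeric H3 variant, rose in footprints from 79.7 ± 1.22 RPKM in PBS to 128 ± 4.87 at 21 h (log2 fold change 0.64, limma adjusted p = 0.000993), while its RNA was 28.3 ± 2.74 and 24.5 ± 0.964 RPKM (-0.28, limma adjusted p = 0.147). Its TE rose by 0.92 (limma adjusted p = 0.0362), a call that was lost under 13 of 22 alternatives, 9 of them with 1 library left out (adjusted p up to 0.143). Of 6 tested genes for the 3′ ends of stem-loop histone mRNAs, 2 were higher in footprints at 21 h and 2 in RNA, and 0 were lower in either. Slbp, the stem-loop binding protein, rose by 1.18 in footprints (196 ± 2.60 to 458 ± 1.21 RPKM) and by 1.15 in RNA. Footprints of Eri1, a 3′ exonuclease of histone mRNA, rose by 0.55, and the RNA of Npat, the coactivator of histone genes, by 0.87, a call lost without any 1 of the PBS or 21 h libraries.

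Transcripts whose pattern was nearest to a member were found by the root mean square difference of log2 values, each centred on its mean within the assay, over the 12 libraries and 9312 transcripts. H2ax lay nearest to Arhgap11a (0.07) and Mcm2 (0.08), the latter a subunit of the replicative helicase. H3f3b lay nearest to Psma7 (0.07), a proteasome subunit, and Cggbp1 (0.08). Macroh2a1 lay nearest to Canx, the ER chaperone calnexin, and Asah1, the lysosomal acid ceramidase (0.06 for both). H1f0 lay nearest to Hmg20b (0.08) and Hook3 (0.10), H2az1 to Wfdc2 and Gna13 (0.07 for both), H2az2 to Sec61a1 and Dnajc2 (0.09 for both) and H3f3a to Slc39a1 and Selenof (0.07 for both). Over the same libraries the members themselves deviated from their mean by 0.11 (H3f3a) to 0.34 (H2ax), so that for H3f3a and H2az2, which varied little, nearness mainly describes transcripts that also varied little.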

How the data were processed

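Ribosome profiling and RNA-seq were analysed in 12 libraries, 2 for each assay and treatment, grouped by the sample labels. The deposited values are RPKM, which the authors made for each library and a representative transcript of each gene, without pooling, from reads divided by the coding length (footprints) or transcript length (RNA-seq). The submitters' processing notes name STAR, cutadapt and GRCm39. Unlisted transcripts were set to 0. Multiplied by length, 100% of the values were whole reads (tolerance 0.01), which gave the depths. The replicates of each group differed by more than sampling noise (a chi-square of 1.46 to 4.12 for each degree of freedom).

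RPKM values were scaled by median-of-ratios factors within each assay, kept at a mean of at least 1 (10390 transcripts for footprints, 9459 for RNA and 9312 for TE) and fitted as log2(RPKM + 0.5) with limma 3.58.1 (lmFit, eBayes with a trend) in R 4.3.3, with the 3 groups of an assay in a single model. Fold changes on this scale understate those of low transcripts. TE was the interaction of assay and treatment over 12 libraries. Tests were two-sided with an adjusted p threshold of 0.05. Means ± SD are of RPKM as deposited. Intervals and limits on reads cover counting error only where so stated, and reads carried no molecular identifiers used here.

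The fits were repeated with the replicate number as a block, voom on recovered reads, unscaled or quantile-normalized RPKM, a pseudocount of 0.1 or 1, a filter at 5 or none, a variance prior without trend, the compared groups alone, and each library left out. The members, lists and tests were chosen with earlier results of these data known. All members are named. From each list, at most the 3 largest changes past the threshold at 21 h per measure are named, with the other assay's value for some, and for each member the 2 nearest transcripts. Promoters are from RefSeq on GRCm38.p6, not the build of the files, and held 8 of the 9 members (all but H2ax). Overlapping genes were taken from RefSeq on the same build. Gene coordinates on GRCm39 and protein sequences were not used here. A further allele of the line is not reported here. The scripts were tested on simulated data. There, a log2 change of 1 at 21 h was found in 54.3% of changed transcripts for footprints, 33.2% for RNA and 10.7% for TE. False calls numbered 7, 6 and 0. The simulation was set to change 200 transcripts, far fewer than were called in footprints and RNA of the data at 21 h. The shares found are therefore not the power of the fits to the data. Python 3.11.15, pandas 2.3.3, numpy 2.4.6 and matplotlib 3.10.9 were used.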

Additional observations from a re-analysis of the deposited data

Results flagged for a closer look

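Among the members, 6 differences between the time points passed the limma test of 21 h against 6 h itself, at an adjusted p under 0.05, so that their changes from PBS differed between the time points. In footprints the log2 difference was -0.55 for H1f0, 0.64 for H2ax, -0.49 for H2az1 and -0.42 for Macroh2a1. In RNA it was 0.78 for H2ax and 0.44 for H3f3b. In each, both libraries of 21 h lay on the same side of both libraries of 6 h.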

How the results depend on the processing

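Over 56 results of single members, 980 alternative values were computed, of which 907 kept direction and side of the threshold, 22 lost the threshold, 11 gained it and 40 turned sign. Apart from the RNA of H2az1 at 21 h, the results that turned sign had not passed the test under either setting. The number of members called at 21 h stayed within 3 to 4 of 7 in footprints and 2 to 3 in RNA when 1 library was left out, within 2 to 4 (footprints) and 2 to 3 (RNA) for 21 h against 6 h, and at 0 for both assays at 6 h and for TE. Without 6 h replicate 1 only H2ax and H2az1 passed in footprints between 6 h and 21 h, 2 members in place of 4. Voom gave 1 member at 6 h in footprints and 1 in RNA. For RNA between 6 h and 21 h, 1 member (H2ax) passed without the trend. For TE at 21 h, 1 member (H3f3b) passed with a pseudocount of 1, a mean RPKM of at least 5, RPKM as deposited, quantile normalization and voom. Counted in reads and not per length, the H3f3b share of H3.3 RNA was 88.0% in PBS, 88.3% at 6 h and 91.6% at 21 h, and the H2az2 share of H2A.Z RNA 10.7%, 9.39% and 11.5%.

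The values that turned sign are log2 differences, given with the range over fits with 1 library left out. In footprints at 6 h H1f0 was 0.012 (RPKM as deposited), 0.0028 (quantile normalization) and -0.17 to 0.15 (libraries left out, of which 0.074, 0.0057 and 0.0058 turned too), and H3f3a -0.0076 to 0.28. In footprints at 21 h H2az2 was 0.0064 (as deposited) and -0.14 to 0.10. In footprints between 6 h and 21 h H3f3b was 0.011 (as deposited), 0.064 (quantile) and -0.068 to 0.046 (0.036 turned too), and H3f3a -0.014 to 0.15. In RNA Macroh2a1 at 6 h was -0.17 to 0.034. In RNA at 21 h H2az1 was 0.024 (as deposited) and 0.22 (quantile), H2az2 -0.034 (quantile) and -0.053 to 0.17, and H3f3a -0.041 (quantile). In RNA between 6 h and 21 h, as deposited, H3f3a was 0.049 and Macroh2a1 0.052, and H2az1 was 0.10 with quantile normalization. For TE at 6 h H3f3a was 0.067 (as deposited) and -0.16 to 0.12 (0.0023 and 0.073 turned too), Macroh2a1 0.018 (as deposited) and -0.16 to 0.045, H2az1 -0.020 (quantile) and -0.0060 to 0.15, and H3f3b 0.0013 (quantile). For TE at 21 h, with 1 library left out, H1f0 was -0.30 to 0.20 (0.11, 0.077 and 0.015 turned too), H2az2 -0.20 to 0.044 (0.023 turned too) and H2ax -0.046 to 0.26 (-0.027 turned too). The cause was not tested.

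Over all transcripts, 212 were called in footprints at 6 h, against 0 to 1276 under the alternatives, and 38 in TE at 21 h, against 0 to 152, the lowest without the trend and the highest with voom in both. In footprints at 6 h 0 also passed without 6 h replicate 2. In RNA at 6 h limma called 0 (1086 at an unadjusted p under 0.05) and voom 228, and in TE at 6 h 0 (712 unadjusted) and 14. Footprints between 6 h and 21 h gave 3188 (1602 to 3637), RNA at 21 h 2248 (1059 to 3007) and RNA between 6 h and 21 h 1488 (684 to 2012). RPKM as deposited moved the median of all transcripts by up to 0.14 on the log2 scale, in RNA between 6 h and 21 h, where it gave 1234 higher and 514 lower calls in place of 712 and 776.

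Within an assay, the replicate numbers did not pair the libraries of different groups. The deviations of same-numbered libraries from their group means correlated at -0.014 to 0.021 between groups of an assay. Pairing between footprint and RNA-seq libraries of the same number was not examined. The TE model treated all 12 libraries as independent. With the replicate number as a block, the number of members called at 21 h was 4 in footprints and 2 in RNA, where H1f0 (-0.51) had an adjusted p of 0.0507, and 0 in TE, and over all transcripts 37 passed in footprints at 6 h and 5 in TE at 21 h.

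Precision is limited by 2 libraries a group and, in RNA, by as few as 91 to 159 reads for Macroh2a1.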
